A study of Mus musculus with 18 samples.

Results

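Ribosomal proteins are the protein part of the cytosolic ribosome, which is built from a small subunit that reads the mRNA and a large subunit that joins the amino acids. Their mRNAs are short and abundant and mostly begin with a C followed by a run of pyrimidines, the terminal oligopyrimidine (TOP) start, through which the kinase complex mTORC1 and the RNA-binding protein Larp1 control how much of the mRNA is translated and stored. Growing or activated cells make many ribosomes, whereas macrophages that meet bacterial lipopolysaccharide (LPS) change both mTORC1 activity and translation. The genes described here were the protein-coding rows of the count table whose symbols begin with Rpl or Rps and a digit, or are Rplp0, Rplp1, Rplp2 or Rpsa, with the Rps6 kinases left out. The rule used no measured value. It gave 92 genes of 55573, of which 43 encode large subunit proteins, 31 small subunit proteins and 3 the P stalk, the flexible arm that recruits elongation factors. Another 14 were paralogs or extra copies and 1, Rps19bp1, matched by name but encodes a protein that binds Rps19 and is not part of the ribosome. Of the 92 genes, 86 passed the filter on low counts and were tested among 13443 genes, including all 77 genes of the first 3 classes, called core genes below.

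The libraries were made from freshly isolated peritoneal macrophages of C57BL/6 mice, sorted from lavage by flow cytometry for CD11b and F4/80, with 3 libraries in each of 6 groups and 2 to 3 mice pooled per library. Zeb1 WT mice carried the floxed Zeb1 allele without Cre (Zeb1 f/f). Zeb1 ∆M mice carried the same allele with LysM Cre, a Cre expressed from the Lyz2 locus of myeloid cells, so deletion was not limited to macrophages. Mice of each genotype received a single dose of LPS (LPS), LPS in 2 doses as a model of tolerance (LPS + LPS), or Metformin, an antidiabetic drug that lowers mitochondrial complex I and mTORC1 activity, before a single dose of LPS (Metformin + LPS). Every group had therefore received LPS, and no unstimulated group was analysed here. The replicates were separate pools, and p-values measure the spread between them.

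Libraries held 14053706 to 30570439 counts. Zeb1 checked the labels: after a single LPS dose, Zeb1 WT libraries had 6.41, 6.69 and 7.21 counts per 1000000 counts (CPM) and Zeb1 ∆M libraries 2.30, 3.01 and 1.38, while Metformin + LPS gave 12.6, 12.9 and 12.3 against 4.21, 4.79 and 3.92 CPM. In LPS + LPS it was near 1 CPM in both genotypes (0.912, 2.52 and 1.07 against 0.738, 0.926 and 0.758), so the check was weaker there. The macrophage markers Adgre1, Itgam, Csf1r, Cd68, Lyz2 and Mertk were detected in every group. The Metformin + LPS libraries carry another code series in the labels than the other 12, and their share of counts on rRNA-like genes was 4.63 to 14.4%, against 0.32 to 2.4% elsewhere, so Metformin and code series cannot be told apart, while genotype within Metformin + LPS lies inside 1 series. Replicate 3 of Zeb1 ∆M Metformin + LPS stood apart from replicates 1 and 2, which were alike. Scaling mattered in these libraries: the composition factors (TMM) ran from 0.445 in a Zeb1 WT Metformin + LPS library to 1.56 in LPS + LPS, so that every CPM and fold change here is relative to the bulk of genes in the same library. In bulk libraries, fewer cells of a type and less RNA of a gene per cell cannot be told apart.

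The annotated starts of a few of these genes lie in or beside a pyrimidine run, and are printed with others that do not. A window without such a run does not show that the mRNA lacks a TOP start. Each line gives 10 bases before the annotated start and 20 from it, from the RefSeq annotation of GRCm38.p6, 5′ to 3′ on the gene's strand, with the longest run of at least 5 pyrimidines in capitals. Rps6, Rps18, Rps10, Rplp2, Rpl7a and Rps9 were chosen for their runs, Rplp0 and Rps3a1 because they had the smallest adjusted p between genotypes after Metformin, and Rpl7l1 because it moved against the others.
Rps6 (chr4:86857348-86857377, minus strand): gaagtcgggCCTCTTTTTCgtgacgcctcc
Rps18 (chr17:33955646-33955675, minus strand): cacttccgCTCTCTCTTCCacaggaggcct
Rps10 (chr17:27635225-27635254, minus strand): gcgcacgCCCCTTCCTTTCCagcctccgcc
Rplp2 (chr7:141447641-141447670, plus strand): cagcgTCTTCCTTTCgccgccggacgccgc
Rpl7a (chr2:26910797-26910826, plus strand): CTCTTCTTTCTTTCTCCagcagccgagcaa
Rps9 (chr7:3704031-3704060, plus strand): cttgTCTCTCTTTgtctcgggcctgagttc
Rplp0 (chr5:115559457-115559486, plus strand): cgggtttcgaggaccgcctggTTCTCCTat
Rps3a1 (chr3:86142649-86142678, minus strand): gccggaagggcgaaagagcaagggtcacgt
Rpl7l1 (chr17:46782637-46782666, minus strand): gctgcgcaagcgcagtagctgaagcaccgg

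Inside the window the run was 17 bases long in Rpl7a, where it began at the first base printed and may extend further, and 13 in Rps10. In Rpl7a and Rps9 the start base within the run is a T. Rps3a1 and Rpl7l1 had no run of 5 bases or more in this window. Promoter windows of 300 bases were found for 66 of the 92 genes. The 57 core genes among them had 67 windows, and the shares that follow are of these. A C at the start base followed by at least 4 pyrimidines was found in 13 of 67 windows (19.4%), against 823 of all 32851 RefSeq windows of that length (2.51%). With the C allowed within 5 bases of the annotated start the shares were 43.3% and 18.3%. Annotated starts can be a few bases off, and a wider search also meets more runs in any window. The part of each in the rise was not tested. The letters CCGGAAG, which hold the core of ETS-family sites, were in 37.3% of the windows on either strand against 8.86% of all, and GGGCGG, the core of an Sp1 box, in 61.2% against 35.7%. TATAAA was less frequent than in all windows (8.96% against 13.6%), as was CAGGTG (10.4% against 20.2%), the E-box that Zeb1 binds. The motifs were counted independently of each other, and a match is a description of letters, not of binding.

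Per kilobase of transcript, the most abundant of the 92 genes over all 18 libraries was Rplp0, which encodes the base of the P stalk, at 1170 CPM per kilobase. Rpl10, a large subunit protein that joins late in assembly, followed at 756, then the small subunit gene Rps9 at 702, Rpl13 at 635, Rps2 at 589 and Rpl3, which lies near the peptidyl transferase centre, at 567. The lowest core genes were Rpl22 at 7.59, Rps21 at 17.4, Rps20 at 26.0 and Rpl37 at 26.7 CPM per kilobase. Lengths were medians over the annotated coding transcripts of a gene, and the low place of Rps20 rests on a length of 3706 bases. It held 0.660% of the counts of the 92 genes, beside 0.669% for Rpl41, which stood at 184 CPM per kilobase. Core proteins are held at about equal copy number in the ribosome. By this measure their mRNA levels still spanned a wide range around a median of 182 CPM per kilobase, with 38 of 77 between 100 and 300. The 10 highest genes held 40.1% of all counts of the 92, and Rplp0 alone 6.99%. Longer core transcripts had the higher CPM (Pearson r = 0.38, Spearman rho = 0.51 over 77 genes, between 0.33 and 0.44 for Pearson r within single libraries), against -0.08 for both measures over 11670 other coding genes. These correlations are across genes, which are not replicates, and all share the same libraries.

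Of the tissue-restricted paralogs, Rpl10l had no count in any library, which allows at most 0.00808 CPM over all libraries (3 counts, counting error only), and Rpl3l, the striated muscle form of Rpl3, had 22 counts in 6 libraries. Rpl39l was low at 0.471 CPM per kilobase. The other untested genes were copies named as pseudogenes although typed as protein coding: Rpl36-ps4 had no count, Rpl9-ps1 had 10, Rpl36a-ps1 had 16 and Rps12-ps3 had 79 counts in all. Such copies share sequence with their parent genes, so the counts of Rpl10-ps3 and the like are uncertain. The 306 genes named as ribosomal protein pseudogenes held no more than 0.05% of the counts of any library.

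The 92 genes together took 1.39, 1.21 and 1.08% of the counts of Zeb1 WT macrophages under LPS, and 1.07, 0.911 and 1.15% of those of Zeb1 ∆M macrophages. LPS + LPS gave shares of 1.51, 1.31 and 0.972% for Zeb1 WT and 1.12, 1.07 and 0.931% for Zeb1 ∆M, and both genotypes overlapped their LPS groups. Zeb1 WT Metformin + LPS had 2.10, 1.63 and 1.34%, of which the first pair were the highest of all libraries and the last lay within the range of other groups, and Zeb1 ∆M Metformin + LPS had 1.31, 1.25 and 1.41%. Within a group the genes moved together: replicate 1 of Zeb1 WT LPS + LPS was the highest of its group in 80 of the 86 tested genes and replicate 3 the lowest in 77, replicate 2 of Zeb1 ∆M LPS was the lowest in 80, and replicate 1 of Zeb1 WT Metformin + LPS was the highest in 74. The genes are therefore far from independent of each other, and a count of genes that moved says less than its size.

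**Figure D1:**
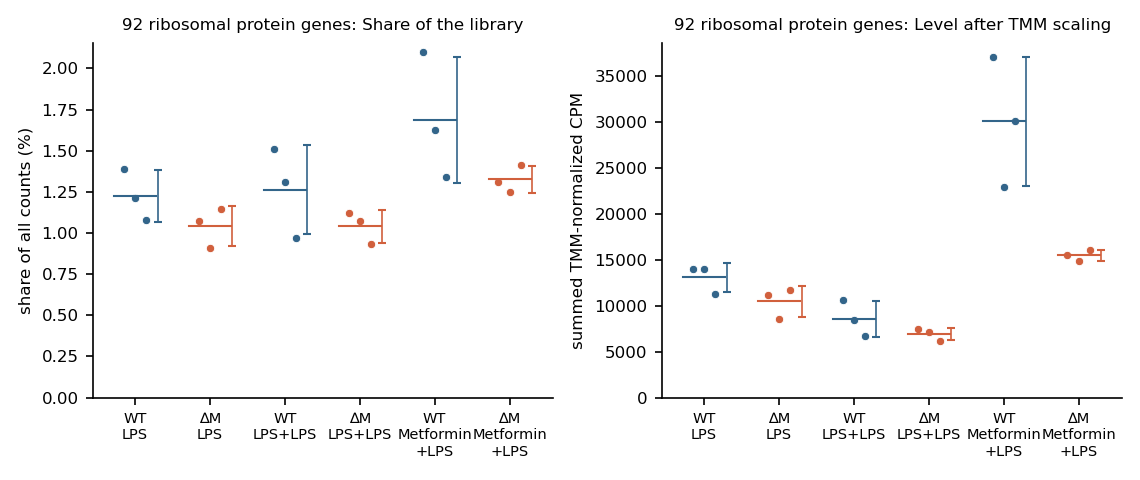
Summed level of the 92 cytosolic ribosomal protein genes in each of the 18 libraries, by group, as a percent of all counts and as CPM with the TMM factors. Points are libraries, bars the group mean and error bars the SD (n = 3). The Zeb1 WT Metformin + LPS libraries are the highest on the CPM scale, and the LPS + LPS groups lie below LPS on the CPM scale but overlap it as a percent of counts.

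Metformin before LPS gave the largest difference. In Zeb1 WT macrophages, 77 of the 86 tested genes were higher in Metformin + LPS than in LPS at an adjusted p under 0.05 (edgeR quasi-likelihood test with Benjamini-Hochberg adjustment over all 13443 genes), when 13% of all tested genes were higher, and 1 was lower, against 12.3%. Their median log2 fold change was 1.25 (quartiles 0.96 and 1.49), with the median of all genes at -0.03. By class, 30 of 31 small subunit genes (median 1.24), 40 of 43 large subunit genes (median 1.29) and all 3 P stalk genes rose. In 77 of 86 genes every Metformin + LPS library was above every LPS library, against 19.5% of all genes. The rise did not rest on a single library, as 65 to 77 genes were called with any one library of these groups left out. It was smaller on another scale: with library totals in place of the TMM factors 37 genes rose and 4 fell, the median was 0.51 and that of all genes -0.74. Other coding genes of 500 to 700 bases had a median of 0.12 (621 genes, which went in both directions), beside 1.32 for the 27 ribosomal protein genes of that length. Neutrophil markers went from 258 to 568 CPM (Mpo at 0) to 50.7 to 135 CPM (Mpo and Elane at 0), B cell markers, none at 0, from 170 to 258 to 34.8 to 68.4 CPM, and dendritic cell markers, none at 0, from 471 to 825 to 102 to 110 CPM. Mast cell and basophil markers rose without overlap, from 1.17 to 6.49 CPM (Ms4a2 and Mcpt8 at 0) to 10.5 to 17.1 CPM (Mcpt8 at 0). Macrophage and large peritoneal macrophage markers, none at 0, overlapped between the groups. The part of these markers, like that of the rRNA-like share, was not tested.

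Rpl7a, a large subunit gene on chromosome 2, had 152, 138 and 115 CPM in Zeb1 WT LPS and 520, 373 and 410 CPM in Zeb1 WT Metformin + LPS. The groups lay far apart, at 135 ± 19.0 and 435 ± 76.6 CPM (SD, n = 3), a log2 fold change of 1.69 (SE 0.19, edgeR adjusted p = 1.4e-05). Rpl41, which encodes the smallest ribosomal protein, went from 73.1, 78.5 and 65.2 to 329, 165 and 237 CPM (log2 fold change 1.75, SE 0.24, edgeR adjusted p = 7.8e-05). Rps28, a small subunit gene, went from 32.5, 35.1 and 27.6 to 150, 80.2 and 100 CPM. Its log2 fold change was 1.79 (SE 0.25, edgeR adjusted p = 9.4e-05). Rps27a, whose product is made as a fusion with ubiquitin, rose from 144, 137 and 94.4 to 620, 331 and 423 CPM. In each of these genes replicate 1 of the Metformin + LPS group was the highest library and replicate 2 the lowest, without overlap with LPS.

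Known members with other roles rose as well. Rpl11 and Rpl5, which with the small ribosomal RNA of the large subunit bind Mdm2 and stabilise p53 when ribosome assembly fails, had log2 fold changes of 1.83 (SE 0.27, edgeR adjusted p = 1.2e-04) and 0.98 (edgeR adjusted p = 7.2e-04). Rpsa, the small subunit protein also known as the laminin receptor, had a log2 fold change of 1.83 (edgeR adjusted p = 2.3e-04), and Rps6, the substrate of the S6 kinases, of 0.87 (edgeR adjusted p = 0.0056). Rplp0 rose by 1.26 (SE 0.25, edgeR adjusted p = 0.0012) and Rpl13a, a large subunit protein often used as a reference gene, by 0.93 (edgeR adjusted p = 0.0023). Core genes that missed the threshold were Rpl37a (0.51), Rps27 (0.25), Rpl38 (0.69) and Rpl36 (-0.30), of which Rpl38 and Rpl36 are named after their values were seen.

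In Zeb1 ∆M macrophages the same comparison called 43 of 86 genes higher, against 12.6% of all genes, and 1 lower, against 13.6%, with a median log2 fold change of 0.64 (quartiles 0.45 and 0.96) beside -0.04 for all genes. Small subunit genes were called in 19 of 31 (median 0.80), large subunit genes in 21 of 43 (median 0.62) and P stalk genes in 2 of 3. Metformin + LPS lay above LPS without overlap in 66 genes, against 20.5% of all. The count was 24 without replicate 2 of Zeb1 ∆M LPS, 28 without replicate 1 of Zeb1 ∆M Metformin + LPS, and 20 with library totals. Rps28 again rose, from 21.6, 17.6 and 18.2 to 63.0, 48.3 and 56.0 CPM (log2 fold change 1.54, SE 0.25, edgeR adjusted p = 3.7e-04). Rpl7a rose from 99.7, 92.9 and 113 to 236, 232 and 210 CPM (log2 fold change 1.15, SE 0.19, edgeR adjusted p = 3.4e-04). Rpl27a rose by 1.28 on the log2 scale (SE 0.24, edgeR adjusted p = 0.0012) and Rpl41 by 1.23 (edgeR adjusted p = 0.0014). Rplp0 did not pass the test: it had 762, 605 and 865 CPM in LPS and 893, 913 and 832 CPM in Metformin + LPS (log2 fold change 0.24, SE 0.24, edgeR adjusted p = 0.49). Rps3a1, a small subunit gene, had a log2 fold change of -0.37 (SE 0.30, edgeR adjusted p = 0.38). Neutrophil markers went from 36.4 to 118 CPM (Mpo at 0) to 6.43 to 11.0 CPM (Ly6g, Ngp, Mpo and Elane at 0). B cell markers, none at 0, went from 36.6 to 55.7 to 9.74 to 14.2 CPM. Macrophage markers, none at 0, went from 26580 to 41995 to 17941 to 24952 CPM. That sum was mostly Lyz2, the locus of the Cre, at 38104, 22534 and 30415 and then 11022, 10638 and 18650 CPM. It says little of the other macrophage markers. Large peritoneal macrophage markers, none at 0, went from 20706 to 30552 to 16580 to 18656 CPM. Eosinophil markers went from 14.8 to 221 CPM (Epx and Ear1 at 0) to 2.50 to 3.11 CPM (Prg2, Epx, Ear1 and Ear6 at 0). Dendritic cell markers overlapped between the groups, and the part of these markers was not tested.

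**Figure D2:**
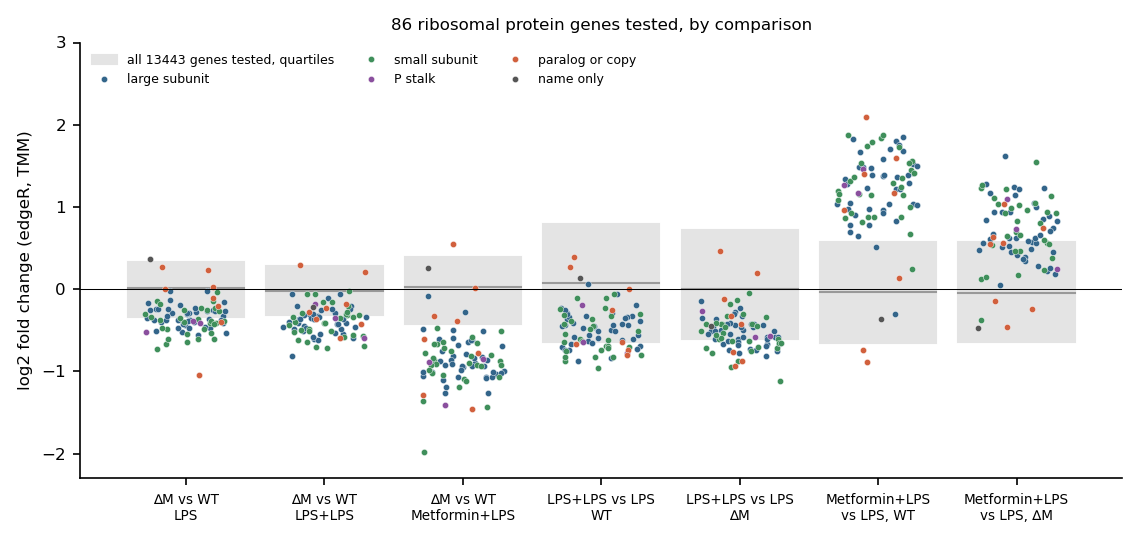
Log2 fold changes of the 86 tested ribosomal protein genes in the 7 comparisons between groups. Each point is a gene and the grey band holds the middle quartiles of all 13443 tested genes. The medians of Metformin + LPS against LPS (1.25 and 0.64) lie above the band and that of genotype in Metformin + LPS (-0.88) below it, as were those of genotype in LPS (-0.37) and LPS + LPS (-0.36) by a small margin. Those of LPS + LPS against LPS (-0.49 and -0.54) lie inside the band. With library totals they were 0.16 and 0.06, below the medians of all genes on that scale.

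Genotype was the second question within Metformin + LPS. There, 51 of 86 genes were lower in Zeb1 ∆M than in Zeb1 WT, against 4.61% of all genes, and 1 was higher, against 1.26%. The median log2 fold change was -0.88 (quartiles -1.02 and -0.66), with all genes at 0.03, and all 77 core genes were below 0. Lower calls took in 17 of 31 small subunit genes (median -0.89), 30 of 43 large subunit genes (median -0.91) and 2 of 3 P stalk genes. Zeb1 ∆M lay below Zeb1 WT without overlap in 70 genes, against 12.9% of all. The number of calls depended on single libraries and on the scale. It was 17 and 9 with replicate 1 or replicate 2 of Zeb1 ∆M Metformin + LPS left out, and 13 without replicate 1 of Zeb1 WT Metformin + LPS, where the median was -0.60. Without replicate 3 of Zeb1 ∆M Metformin + LPS, the library that stood apart, 34 were called. With library totals 3 genes were lower and 2 higher, the median was -0.29 and that of all genes 0.60, so the median lay below that of all genes on both scales.

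Rps3a1 (chromosome 3) had the strongest difference, at 627, 336 and 450 CPM in Zeb1 WT against 112, 126 and 119 CPM in Zeb1 ∆M. That is 471 ± 146 against 119 ± 7.12 CPM (SD, n = 3), a log2 fold change of -1.98 (SE 0.31, edgeR adjusted p = 0.0015). Rplp0 (chromosome 5) had 2475, 1636 and 2881 CPM in Zeb1 WT against 893, 913 and 832 CPM in Zeb1 ∆M (log2 fold change -1.41, SE 0.25, edgeR adjusted p = 0.0033). The Zeb1 WT libraries differed among themselves by more than the Zeb1 ∆M libraries in both genes, and none overlapped. Rps27a had 620, 331 and 423 against 181, 161 and 167 CPM (log2 fold change -1.43, SE 0.26, edgeR adjusted p = 0.0034). Rpl13a had 270, 157 and 194 against 100, 91.6 and 96.7 CPM (log2 fold change -1.10, SE 0.20, edgeR adjusted p = 0.0034). In Zeb1 WT, replicate 1 was the highest library in 3 of these 4 genes and replicate 3 in Rplp0. Rpl11 (-1.27, edgeR adjusted p = 0.0082), Rpsa (-1.12, edgeR adjusted p = 0.025), Rps6 (-0.89, edgeR adjusted p = 0.016) and Rpl5 (-0.61, edgeR adjusted p = 0.049) were lower as well.

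Markers of other cell types differed in the same comparison, though not all in the same direction. The summed CPM of 12 neutrophil markers was 50.7 to 135 in Zeb1 WT Metformin + LPS, where Mpo and Elane were at 0, and 6.43 to 11.0 in Zeb1 ∆M, where Ly6g, Ngp, Mpo and Elane were at 0. The 10 B cell markers, none at 0, summed to 34.8 to 68.4 and 9.74 to 14.2 CPM, the 6 eosinophil markers to 38.4 to 56.3 (Epx at 0) and 2.50 to 3.11 CPM (Prg2, Epx, Ear1 and Ear6 at 0), and the 7 mast cell and basophil markers, with Mcpt8 at 0 in both, to 10.5 to 17.1 and 1.13 to 2.74 CPM. The 6 macrophage markers summed to 43008 to 102721 and 17941 to 24952 CPM, mainly through Lyz2, the locus of the Cre, at 73808, 35646 and 92572 against 11022, 10638 and 18650 CPM. Dendritic cell markers went the other way, at 102 to 110 and 111 to 600 CPM (Clec9a at 0 in Zeb1 ∆M), without overlap. Large peritoneal macrophage markers, none at 0, overlapped, at 15403 to 22216 and 16580 to 18656 CPM. The part of these differences in those of the ribosomal protein genes was not tested.

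Under a single LPS dose, no ribosomal protein gene differed between the genotypes at an adjusted p under 0.05 by edgeR, when 0.937% of all genes were lower and 0.208% higher in Zeb1 ∆M. DESeq2 called none either. All 77 core genes were nevertheless below 0, with a median of -0.37 over the 86 genes beside 0.01 for all genes, and 29 lay below Zeb1 WT without overlap, against 10.8% of all. The largest differences at a mean of at least 3 on the log2 CPM scale were those of Rps28, at 32.5, 35.1 and 27.6 against 21.6, 17.6 and 18.2 CPM (log2 fold change -0.73, SE 0.25, edgeR adjusted p = 0.18), of Rps20 (-0.64, edgeR adjusted p = 0.36) and of Rps29, at 56.0, 58.8 and 51.4 against 41.2, 28.1 and 39.5 CPM (-0.61, edgeR adjusted p = 0.29). Rps28 and Rps29 were lower in every Zeb1 ∆M library, by an amount the test did not separate from the spread between libraries. Neutrophil markers summed to 258 to 568 CPM in Zeb1 WT and 36.4 to 118 CPM in Zeb1 ∆M, with Mpo at 0 in both. B cell markers, none at 0, summed to 170 to 258 and 36.6 to 55.7 CPM, and macrophage markers, none at 0, to 43719 to 56970 and 26580 to 41995 CPM. The macrophage sum was mostly Lyz2, the locus of the Cre, at 39718, 51947 and 42735 against 38104, 22534 and 30415 CPM. It says little of the other macrophage markers. Large peritoneal macrophage markers, none at 0, were higher in Zeb1 ∆M, at 14728 to 19699 and 20706 to 30552 CPM. None of these overlapped, and their part in these differences was not tested.

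In LPS + LPS the genotype comparison likewise called no ribosomal protein gene by edgeR (0.216% of all genes were lower and 0.461% higher). The median was -0.36 beside -0.02 for all genes. Zeb1 ∆M lay below Zeb1 WT without overlap in 10 genes and above it in none, against 8.79% and 9.07% of all, so this count was near the background. Rps26, a small subunit protein at the mRNA exit channel, had 70.3, 61.0 and 40.5 CPM in Zeb1 WT and 36.4, 36.9 and 31.6 CPM in Zeb1 ∆M (log2 fold change -0.71, SE 0.21, edgeR adjusted p = 0.14). It was the only one called by DESeq2 (adjusted p = 0.049). Rpl39, which lines the exit tunnel, had a log2 fold change of -0.82 (SE 0.39, edgeR adjusted p = 0.43) and Rps29 of -0.70 (SE 0.25, edgeR adjusted p = 0.25). Here replicate 1 of Zeb1 WT was the highest library of its group for most genes, and the median was -0.21 without it and -0.54 without replicate 3. Neutrophil markers, none at 0, summed to 629 to 3498 CPM in Zeb1 WT and 426 to 1085 CPM in Zeb1 ∆M, which overlap. Large peritoneal macrophage markers, none at 0, summed to 1373 to 2459 in Zeb1 WT and 5439 to 8308 CPM in Zeb1 ∆M, and eosinophil markers, with Epx and Ear1 at 0 in both, to 45.1 to 327 and 12.2 to 26.3 CPM, both without overlap. The part of these markers was not tested.

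Whether the genotypes differed in their response was tested by the interaction terms. For Metformin no ribosomal protein gene passed the edgeR test (0.0818% of all genes were higher and 0.0744% lower). The median was -0.54 beside -0.01 for all genes, and 79 of 86 genes were below 0. The smallest adjusted p was that of Rps3a1 (interaction -1.38 on the log2 scale, SE 0.43, edgeR adjusted p = 0.18), followed among the named genes by Rplp0 (-1.02, SE 0.34, edgeR adjusted p = 0.21). The larger count of genes called in Zeb1 WT than in Zeb1 ∆M was thus not shown to be a difference between genotypes. DESeq2 called none of them either. For LPS + LPS edgeR made no call over all genes (0%), and DESeq2 called 70 higher and 2 lower. Among the ribosomal protein genes neither tool made a call, none had an unadjusted p under 0.05 by edgeR, and the median was -0.06.

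Tolerance was tested by LPS + LPS against LPS. In Zeb1 WT, 28 of 86 genes were lower with the TMM factors and none higher, against 18% and 18.6% of all genes, with a median log2 fold change of -0.49 beside 0.08 for all genes, but with library totals none was lower and 7 were higher, at a median of 0.16 beside 0.73 for all genes. LPS + LPS lay below LPS without overlap in 35 genes and above it in 1, against 22.6% and 24.4% of all genes. Small subunit genes gave 13 of the calls (of 31, median -0.60), large subunit genes 12 (of 43, median -0.45), P stalk genes 2 of 3 and paralogs 1 of 8. Among the LPS libraries, leaving out replicate 1 or replicate 2 took the count to 11 or 8, and among the LPS + LPS libraries leaving out replicate 2 or replicate 3 took it to 16 or 6. Rps9 had 598, 648 and 592 CPM in LPS and 351, 336 and 256 CPM in LPS + LPS (log2 fold change -0.96, SE 0.20, edgeR adjusted p = 0.0011). Rpl7 had 327, 318 and 251 against 200, 170 and 118 CPM (log2 fold change -0.88, SE 0.21, edgeR adjusted p = 0.0030). In both genes every LPS + LPS library was below every LPS library. Rpl3 (-0.74, edgeR adjusted p = 0.0068) and Rpl4 (-0.73, edgeR adjusted p = 0.0070), which reach towards the catalytic centre and the exit tunnel, Rplp0 (-0.78, edgeR adjusted p = 0.018) and Rps6 (-0.69, edgeR adjusted p = 0.015) were lower too on this scale. Neutrophil markers summed to 258 to 568 CPM in LPS (Mpo at 0) and 629 to 3498 CPM in LPS + LPS (none at 0), and the 8 markers of large peritoneal macrophages, none at 0, to 14728 to 19699 and 1373 to 2459 CPM. Dendritic cell markers (471 to 825 and 7.11 to 19.4 CPM) and B cell markers (170 to 258 and 26.0 to 37.9 CPM), none at 0, were lower in every LPS + LPS library. So was the sum of the macrophage markers (43719 to 56970 and 15020 to 24220 CPM), none at 0. It was mostly Lyz2, the locus of the Cre, at 39718, 51947 and 42735 against 19754, 11269 and 15508 CPM, and says little of the other macrophage markers. The part of all these markers in the result was not tested.

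In Zeb1 ∆M the picture was alike on the TMM scale: 27 genes were lower and none higher, against 16.9% and 15.8% of all genes, with a median of -0.54 beside 0.01 for all genes, while with library totals 1 was lower and 1 higher, at a median of 0.06 beside 0.59 for all genes. LPS + LPS lay below LPS without overlap in 59 genes, against 24.8% of all. Leaving out LPS replicate 1 or replicate 3 took the count to 7 or 3, and leaving out LPS + LPS replicate 1, 2 or 3 took it to 13, 9 or 6. It was 11 with upper-quartile factors, 15 without the filter on low counts and 42 when only the groups compared were fitted. Rps9 had 642, 407 and 608 CPM in LPS and 275, 255 and 235 CPM in LPS + LPS (log2 fold change -1.12, SE 0.20, edgeR adjusted p = 3.8e-04). Rps7, a small subunit gene, had a log2 fold change of -0.94 (SE 0.24, edgeR adjusted p = 0.0065), and Rpl7 and Rps6 of -0.78 (edgeR adjusted p = 0.0078) and -0.75 (edgeR adjusted p = 0.010). The LPS libraries of each genotype serve as the reference of both the LPS + LPS and the Metformin + LPS comparison, so the comparisons are not independent. Neutrophil markers summed to 36.4 to 118 CPM in LPS (Mpo at 0) and 426 to 1085 CPM in LPS + LPS (none at 0), and large peritoneal macrophage markers, none at 0, to 20706 to 30552 and 5439 to 8308 CPM, and their part was not tested.

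**Figure D3:**
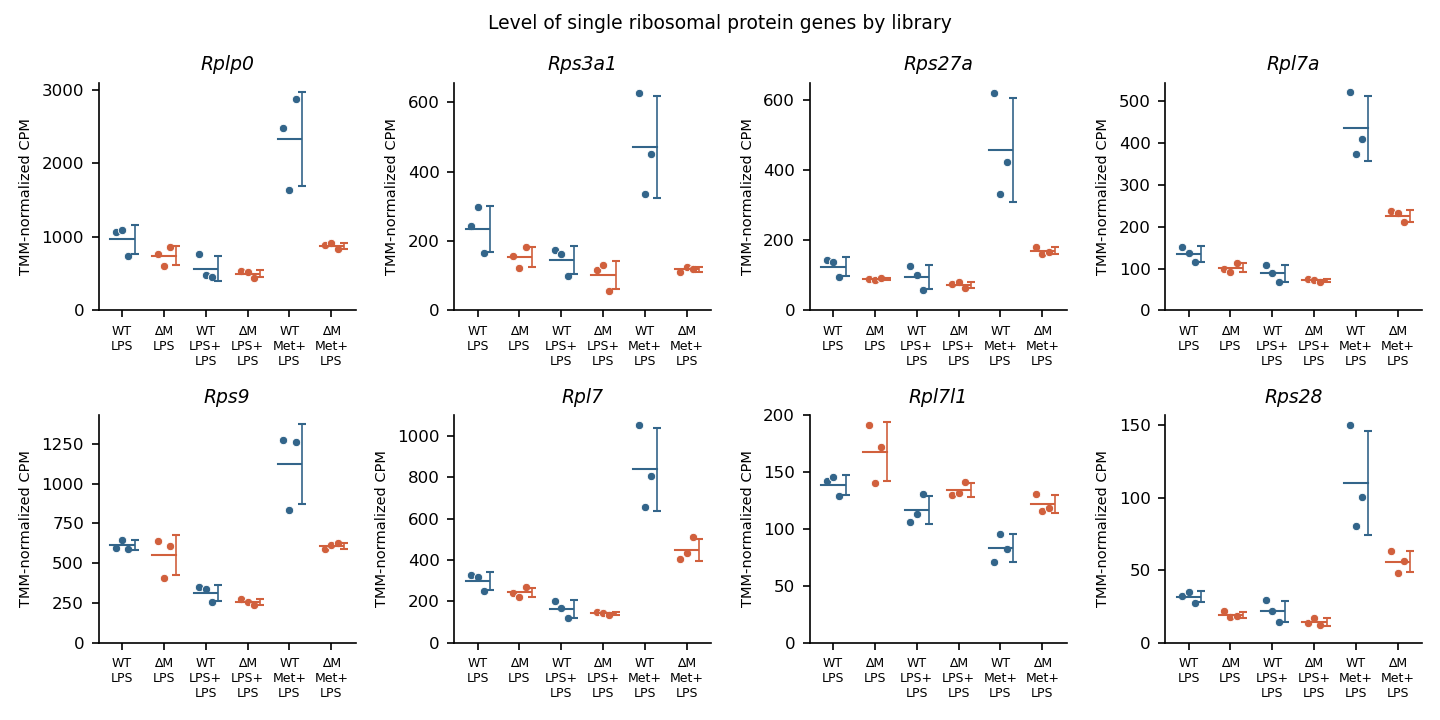
Levels of Rplp0, Rps3a1, Rpl7a, Rps27a, Rps9, Rps28, Rpl7 and Rpl7l1 in each library (CPM with TMM factors). Points are libraries, bars the group mean and error bars the SD (n = 3). Rpl7a and Rps28 are above LPS in both Metformin + LPS groups, Rps3a1 is highest in Zeb1 WT Metformin + LPS, and Rpl7l1 is lowest there.

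Not every paralog moved with its partner. Rpl7l1, a relative of Rpl7 whose yeast counterpart Rlp7 acts in assembly of the large subunit, was the gene that fell in both Metformin comparisons. It had 142, 146 and 129 CPM under LPS for Zeb1 WT, then 71.2, 96.0 and 82.9 CPM in Zeb1 WT Metformin + LPS (log2 fold change -0.74, SE 0.16, edgeR adjusted p = 0.0025), while Rpl7 went from 327, 318 and 251 to 1053, 655 and 805 CPM (log2 fold change 1.49, edgeR adjusted p = 1.0e-04). In Zeb1 ∆M it went from 192, 141 and 172 to 131, 116 and 118 CPM (log2 fold change -0.47, edgeR adjusted p = 0.037). It was also the gene called higher in Zeb1 ∆M than in Zeb1 WT under Metformin + LPS (log2 fold change 0.55, SE 0.16, edgeR adjusted p = 0.049). Those last calls were just inside the threshold: the Zeb1 ∆M call in Metformin + LPS against LPS was lost in 5 of the 6 fits that left out a library (kept without Zeb1 ∆M LPS replicate 2), and so was the genotype call (kept without Zeb1 WT Metformin + LPS replicate 2).

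Rps27l, a p53-responsive relative of Rps27, went from 40.7, 35.4 and 40.4 to 91.6, 55.6 and 80.0 CPM in Zeb1 WT with Metformin (log2 fold change 0.96, SE 0.19, edgeR adjusted p = 0.0012), whereas Rps27 had 53.1, 58.5 and 55.9 and then 73.9, 48.7 and 76.8 CPM (0.25, edgeR adjusted p = 0.42). In LPS + LPS against LPS in Zeb1 WT, Rps27 fell by 0.74 on the TMM scale (SE 0.21, edgeR adjusted p = 0.010), and Rps27l had 50.5, 46.2 and 43.6 CPM after LPS + LPS (0.27, edgeR adjusted p = 0.28). Rpl22, an RNA-binding large subunit protein, rose in both genotypes with Metformin (1.35, SE 0.39, edgeR adjusted p = 0.018 in Zeb1 WT and 1.22, edgeR adjusted p = 0.030 in Zeb1 ∆M). Its paralog Rpl22l1, which Rpl22 represses in mice, did not pass the test in Zeb1 WT (0.14, edgeR adjusted p = 0.70), and on the TMM scale it fell in LPS + LPS in both genotypes (Zeb1 WT -0.74, SE 0.22, edgeR adjusted p = 0.014, Zeb1 ∆M -0.93, SE 0.23, edgeR adjusted p = 0.0038). Rpl36a (1.04, SE 0.27, edgeR adjusted p = 0.0087) and its relative Rpl36al (1.41, SE 0.23, edgeR adjusted p = 3.6e-04) both rose with Metformin in Zeb1 WT. Rpl39 rose as well (1.85, SE 0.39, edgeR adjusted p = 0.0023), as did Rpl10-ps3 (2.09, SE 0.42, edgeR adjusted p = 0.0015), whose counts cannot be separated with certainty from those of Rpl10. Rps19bp1, the gene that matches by name only, was not called in the genotype comparison under LPS (0.37, SE 0.23, edgeR adjusted p = 0.51).

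Ratios within a library need no scaling factor, and 7 of them were compared in 7 comparisons. Over the counts of 78 mitochondrial ribosomal protein genes, those of the 92 genes stood at ratios of 9.30, 10.1 and 7.73 for Zeb1 WT after LPS, 25.7, 17.1 and 22.8 after Metformin + LPS and 6.71, 5.22 and 3.45 after LPS + LPS. Metformin + LPS was 2.42-fold and LPS + LPS 0.567-fold of LPS, without overlap. In Zeb1 ∆M the values were 5.64, 6.20 and 6.99 in LPS, 10.9, 10.2 and 9.78 in Metformin + LPS (1.64-fold of LPS) and 4.60, 4.62 and 3.73 in LPS + LPS (0.688-fold), again apart. Zeb1 ∆M was 0.693-fold of Zeb1 WT in LPS and 0.470-fold in Metformin + LPS, both apart, and 0.842-fold with overlap in LPS + LPS. For Zeb1 WT the mitochondrial genes were themselves higher in LPS + LPS on the TMM scale, with 27 higher and 5 lower of 78 and a median of 0.29, so this ratio reflects both lists.

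Against 35 ribosome assembly factors, the ratio for Zeb1 WT was 4.58, 5.17 and 4.01 under LPS, 21.9, 11.7 and 20.4 under Metformin + LPS (3.92-fold) and 6.13, 6.44 and 4.41 under LPS + LPS, which overlapped LPS. In Zeb1 ∆M it was 4.20, 3.47 and 4.33 in LPS and 7.42, 7.34 and 7.96 in Metformin + LPS (1.89-fold). As for the subunits, the ratio of large to small subunit counts was between 1.20 and 1.38 in all 18 libraries, so both subunits moved together. Rpl7l1 over Rpl7 was 0.435, 0.459 and 0.515 for Zeb1 WT under LPS, 0.0676, 0.146 and 0.103 in Zeb1 WT Metformin + LPS (0.225-fold), and 0.324, 0.268 and 0.233 in Zeb1 ∆M Metformin + LPS (2.60-fold of Zeb1 WT). Rps27l over Rps27 was 0.767, 0.605 and 0.722 for Zeb1 WT under LPS, then 1.47, 1.19 and 1.63 in Zeb1 WT LPS + LPS (2.05-fold), and the Zeb1 ∆M groups differed 1.91-fold in the same direction. With 3 libraries against 3, the two-sided exact permutation test cannot give a p below 0.1, which 28 of the 49 tests reached, and the smallest adjusted p over the 49 was 0.175 (exact permutation tests).

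**Figure D4:**
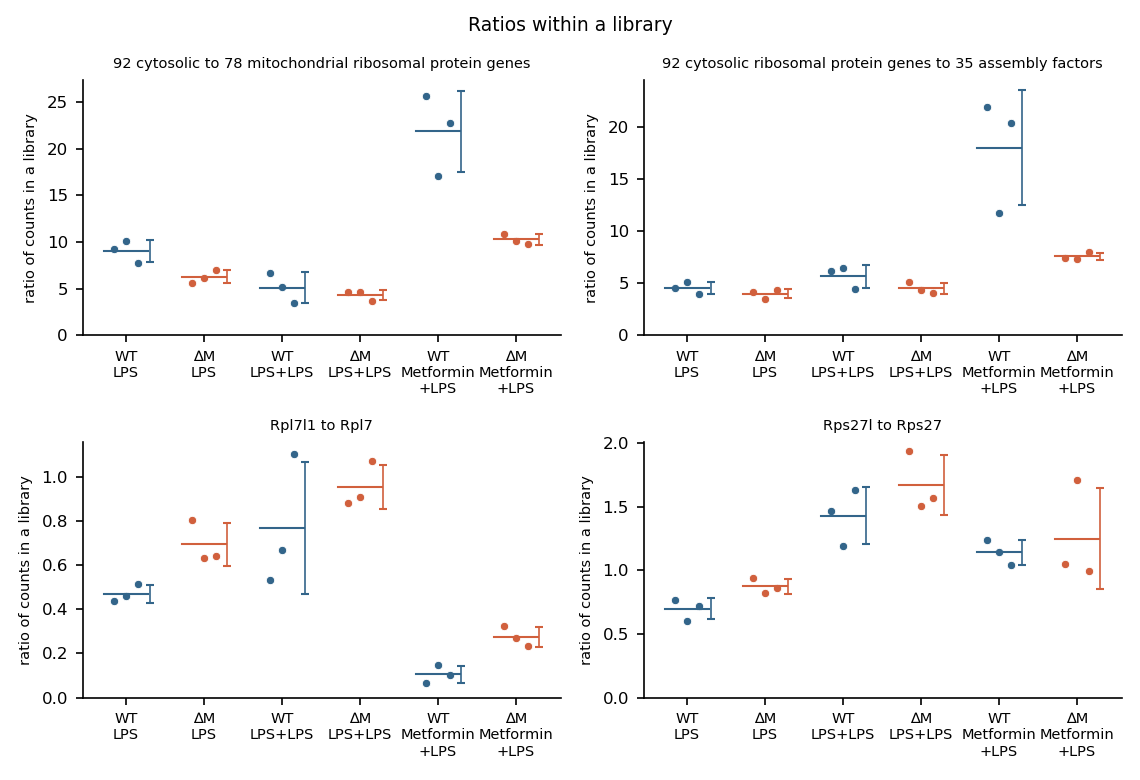
Ratios of counts within each library, which need no scaling factor: the 92 ribosomal protein genes over mitochondrial ribosomal protein genes and over assembly factors, Rpl7l1 over Rpl7 and Rps27l over Rps27. Points are libraries, bars the group mean and error bars the SD (n = 3). Zeb1 WT Metformin + LPS has the highest values in the first pair of panels (17.1 to 25.7 and 11.7 to 21.9) and the lowest Rpl7l1 over Rpl7 (0.0676 to 0.146).

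Genes outside the rule that work with the ribosome were compared from lists. Fau and Rack1, which encode ribosomal proteins under other symbols, both rose in Zeb1 WT with Metformin: Fau, whose small subunit protein is made as a fusion with a ubiquitin-like protein, by 1.68 on the log2 scale (SE 0.23, edgeR adjusted p = 7.8e-05) and Rack1 by 1.21 (edgeR adjusted p = 2.6e-04). Fau (-1.46, SE 0.23, edgeR adjusted p = 0.0015) and Rack1 (-0.92, SE 0.19, edgeR adjusted p = 0.0087) were lower in Zeb1 ∆M Metformin + LPS than in Zeb1 WT. Of a list of 18 genes known to have TOP mRNAs, which holds Fau and Rack1 as well and is thus not separate from them, 10 rose and 1 fell in Zeb1 WT with Metformin on the TMM scale (median 0.78), against 13% and 12.3% of all genes, among them the elongation factor Eef1a1 (2.19, SE 0.32, edgeR adjusted p = 1.3e-04), and 4 were lower and none higher in Zeb1 ∆M than in Zeb1 WT under Metformin + LPS on that scale (median -0.44), against 4.61% and 1.26% of all genes. In Zeb1 ∆M 6 of the 18 rose and 1 fell with Metformin (median 0.41), against 12.6% and 13.6%.

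Assembly factors did not follow with Metformin, whereas in LPS + LPS they were lower on the TMM scale, as were the ribosomal protein genes. In Zeb1 WT with Metformin, 24 of 35 fell and none rose (median -0.91), when 12.3% of all genes were lower, among them the nucleolar protein Ncl (-1.08, SE 0.19, edgeR adjusted p = 5.4e-04), and in Zeb1 ∆M 11 fell and none rose (median -0.50), when 13.6% of all were lower. In LPS + LPS 18 fell and none rose in each genotype (medians -0.61 and -0.62 on the TMM scale), when 18% and 16.9% of all were lower. Those that fell in Zeb1 WT included Ncl (-1.48, SE 0.19, edgeR adjusted p = 8.8e-06) and Npm1 (-1.08, SE 0.18, edgeR adjusted p = 1.2e-04). In Zeb1 WT, Myc, which drives transcription of ribosome genes, fell by 1.97 with Metformin (SE 0.26, edgeR adjusted p = 6.0e-05) and by 1.55 in LPS + LPS on the TMM scale. Gas5, a noncoding TOP host gene of small nucleolar RNAs, fell by 1.09 with Metformin in the same cells (SE 0.24, edgeR adjusted p = 0.0035). Initiation factors (5 higher and 5 lower of 38, median -0.04) and mTORC1 pathway genes (4 higher and 3 lower of 21, median -0.14) were called in Zeb1 WT with Metformin at shares near those of all genes (13% higher and 12.3% lower).

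Whether the TOP start set the size of the change was looked at across the 57 core genes with a window. With Metformin in Zeb1 WT, the 13 with a C and at least 4 pyrimidines at the annotated start had a median of 1.15 and the 44 without had 1.32. With the C allowed within 5 bases of the start the order turned, with 1.29 for 27 genes and 1.21 for the other 30, and in Zeb1 ∆M 0.83 and 0.63. In Zeb1 WT CCGGAAG gave 1.29 (24 genes) against 1.22 (33 genes). These are descriptions across genes of the same libraries. Of the genes printed above, Rps3a1 has no pyrimidine run in its window and that of Rplp0 begins downstream of the annotated start.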

How the data were processed

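The authors deposited whole-number counts per gene for 18 libraries, made from stranded mRNA libraries (TruSeq) of Trizol-extracted RNA. The submitters' processing notes name STAR, RSEM, DESeq2 and GRCm38, with no versions or roles. RSEM divides reads shared by similar genes, which makes paralogs and copies uncertain. Every column was a sample (0 other columns), and no comparison columns were present.

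Counts were tested with edgeR 4.0.16 (R 4.3.3, limma 3.58.1) by a quasi-likelihood fit over all 6 groups with TMM factors, the filterByExpr filter and Benjamini-Hochberg adjustment over 13443 genes (threshold 0.05). SE is the log2 fold change over the root of F. CPM used the TMM factors, and per kilobase values used GENCODE transcript lengths. The fit was tested on simulated data for genotype in Metformin + LPS. It called 18% of 100 randomly drawn genes given a log2 change of 1 and 76% of 100 given 2, with 3 false calls. A gene that was not called may thus still differ. Ratios were compared by exact permutation tests. Alternatives were DESeq2 1.42.0, other scaling, no filter, a fold minimum, a replicate block, fewer groups and leaving out each library. Library totals and removal of length and GC trends were added after the data were seen.

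Members and lists were chosen with earlier results of these data known. Named genes were, per comparison, up to 4 called in each direction by adjusted p, or with fewer than 3 calls the 3 largest changes at a mean log2 CPM of at least 3, the 6 highest and 4 lowest levels, set paralog pairs and well-known members, and up to 3 per list outside. Sequences are from RefSeq (GRCm38.p6), 250 bases before and 50 after each start. A gene of a comparison list is not reported here.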

Additional observations from a re-analysis of the deposited data

How the results depend on the processing

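For the 35 results with the smallest adjusted p or largest change per comparison, no call changed direction under the alternatives run. Of their 596 values, 554 kept their side of the threshold, 39 lost and 3 gained a call, and single results of other named genes were not recomputed. With library totals, several results moved. In LPS + LPS against LPS these gave medians of 0.161 (Zeb1 WT) and 0.0551 (Zeb1 ∆M), with 7 and 1 higher and 0 and 1 lower genes. For Metformin + LPS against LPS they gave 37 higher and 4 lower genes at a median of 0.514 in Zeb1 WT, and 20 higher and 2 lower in Zeb1 ∆M. For genotype in Metformin + LPS they gave 2 higher and 3 lower at a median of -0.288, and for its interaction a median of -0.0361. On this scale the medians of all genes move too, as given above for the comparisons between groups. These medians are therefore not to be read against 0 alone.

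Requiring a log2 fold change of at least 1 left 0 and 1 lower genes in LPS + LPS (Zeb1 WT, Zeb1 ∆M), 17 higher in Zeb1 ∆M with Metformin, 0 lower with Metformin in either genotype, and 25 lower and 0 higher for genotype in Metformin + LPS. Fitting only the groups compared gave 17 and 42 lower in LPS + LPS, and 26 lower for genotype in Metformin + LPS. Removing length and GC trends gave 48 and 61 lower in LPS + LPS. In Zeb1 ∆M LPS + LPS, upper-quartile factors gave 11 and no filter 15. Without the filter, 2 genes (Rps3a1 and Rpl10-ps3) passed the interaction with Metformin. DESeq2 called 1 gene lower for genotype in LPS + LPS. The single lower call in Zeb1 ∆M with Metformin became 0 with median-of-ratios or upper-quartile factors, no filter, only the groups compared, or trends removed. The single higher call for genotype in Metformin + LPS became 0 with median-of-ratios or upper-quartile factors, no filter, only the groups compared, or the replicate block. The causes were not tested beyond what each alternative removes.

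Leaving out 1 library gave medians of -0.44 to -0.24 (genotype in LPS), -0.54 to -0.21 (LPS + LPS), -1.06 to -0.60 (Metformin + LPS), -0.73 to -0.34 and -0.66 to -0.43 (LPS + LPS against LPS in Zeb1 WT and Zeb1 ∆M), and 1.03 to 1.43 and 0.51 to 0.73 (Metformin). Calls were 9 to 61 lower and 0 to 1 higher for genotype in Metformin + LPS, 6 to 40 and 3 to 32 lower in LPS + LPS, 65 to 77 and 24 to 37 higher with Metformin, and 0 to 2 lower with Metformin in Zeb1 ∆M. Interactions had 0 calls in each such fit.

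Pairing by replicate number was not assumed in the main fit. Over 45 same-number pairs of libraries from different groups, the correlation of deviations had a median of 0.018. It ran from -0.163 to 0.239, with 8 over 0.1. Over 90 pairs of different number the median was -0.018 and the range -0.310 to 0.311, with 10 over 0.1. With the replicate block, lower calls in LPS + LPS were 37 (Zeb1 WT) and 38 (Zeb1 ∆M), higher calls with Metformin 77 and 52, and genotype in Metformin + LPS gave 58 lower and 0 higher. Of the 92 genes, 6 had too few counts to be tested at this depth.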
